A study of Mus musculus with 6 samples.

Results

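The haemoglobin and red cell genes described here are Hba-a1, Hba-a2, Hbb-bs, Hbb-bt and Alas2, chosen by name as the adult globin genes of the mouse and the haem synthesis enzyme of the red cell lineage. All 5 were among the 34714 gene symbols of the raw count table, and all 5 were among the 15788 genes with enough counts to be tested. The table holds total RNA of untreated gastrocnemius (Gas) muscle from mice aged 8 weeks, 3 libraries of WT C57BL/6 mice and 3 of global miR-92b knockout mice (M92KO, on C57BL/6JGpt). The animals were male, and the knockout removed the exons of the microRNA gene in every tissue, not only in muscle. The knockout came from a single commercial line, and the controls were age-matched C57BL/6 mice and not stated to be littermates. The labels do not say more of the replicates than that they are separate samples, so p-values measure the spread between these samples. The sources used here do not say whether the vessels were flushed before the muscle was taken.

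Haemoglobin carries oxygen in red cells as a tetramer of alpha and beta chains, each holding a haem group. Hba-a1 and Hba-a2 encode the alpha chain, Hbb-bs and Hbb-bt encode the adult beta chain, and Alas2 encodes the erythroid 5-aminolevulinate synthase, which catalyses the first step of haem synthesis. Circulating mouse red cells have no nucleus, and reticulocytes, the youngest of them, still hold globin and Alas2 transcripts. Muscle fibres store oxygen with a separate protein, myoglobin. In whole tissue, fewer cells of a type and less RNA per cell cannot be told apart.

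In the GENCODE M21 annotation (GRCm38), Hba-a1 (ENSMUSG00000069919) lies at chr11:32283511-32284465 and Hba-a2 (ENSMUSG00000069917) at chr11:32296489-32297298, both on the plus strand. Hbb-bt (ENSMUSG00000073940) lies at chr7:103812524-103813996 and Hbb-bs (ENSMUSG00000052305) at chr7:103826534-103828096, both on the minus strand. Alas2 (ENSMUSG00000025270) lies at chrX:150547375-150570638 on the plus strand. The longest coding transcript of each globin has 3 exons, and that of Alas2 has 11. The following stretches of the coding sequence show how little separates the genes of each pair, with the only base that differs in the whole coding sequence in capitals. Positions are counted from 1 at the A of the start codon, from base 351 to 410 in the alpha genes and from base 382 to 441 in the beta genes.
Hba-a1: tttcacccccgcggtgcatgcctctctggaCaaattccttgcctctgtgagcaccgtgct
Hba-a2: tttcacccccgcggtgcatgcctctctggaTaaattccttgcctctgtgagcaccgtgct
Hbb-bs: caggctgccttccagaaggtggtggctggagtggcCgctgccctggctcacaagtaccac
Hbb-bt: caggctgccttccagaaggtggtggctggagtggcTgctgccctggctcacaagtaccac

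The alpha genes differed by 1 of 426 coding bases (C381T, Hba-a1 first) and the beta genes by 1 of 441 (C417T, Hbb-bs first). Of all 50-base windows of the longest Hba-a2 transcript, 86.9% were also found in the Hba-a1 transcript, and 65.8% of those of Hbb-bs were found in Hbb-bt. No 50-base window was shared between an alpha and a beta gene. How reads from shared stretches were assigned is not given in the sources used here, so the split of counts within each pair is uncertain. The alpha and beta sums are uncertain too if shared reads were discarded or given to other symbols.

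The knocked-out gene yields the following mature microRNAs, from RefSeq (GRCm38.p6, chromosome 3, minus strand), with the seed (bases 2 to 8) in capitals. They are shown because the seed is the part by which a microRNA pairs with its targets.
mmu-miR-92b-3p: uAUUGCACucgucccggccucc
mmu-miR-92b-5p: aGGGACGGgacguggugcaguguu

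The members' longest coding transcripts held 0 matches to either seed, whether 6, 7 or 8 bases long. The 7-base match GTGCAAT of the 3p arm occurs in 8.36% and CCGTCCC of the 5p arm in 7.24% of 58797 coding transcripts of the annotation. The symbol Mir92b was not in the count table, so the loss of the knocked-out gene was not checked in these libraries.

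The sequence before the start is shown for Hba-a2 and for Alas2, from RefSeq (GRCm38.p6). It ends before the first base that GENCODE places in the gene. Whether these sequences bear on the members' levels in these libraries was not tested. For Hba-a2 the sequence spans chr11:32296382-32296481 on the plus strand, with the CCAAT box, the motif CACCC and the TATA-like motif ATATAA in capitals. For Alas2 it spans chrX:150547307-150547374 on the plus strand, with a GATA-type motif read on the other strand in capitals. The GATA-type motif was AGATAA, where the first base could also be T and the last base G.
Hba-a2: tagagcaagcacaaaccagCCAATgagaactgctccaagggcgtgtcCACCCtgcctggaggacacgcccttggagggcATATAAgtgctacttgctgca
Alas2: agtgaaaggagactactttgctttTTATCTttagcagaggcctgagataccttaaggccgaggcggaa

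The motifs were searched on both strands of 300-base windows, 250 bases before to 50 bases after the RefSeq start. ATATAA and CCAAT occurred in the windows of the 4 globins and not in that of Alas2, and CACCC occurred in all 5. A GATA-type motif occurred in the windows of Hba-a1, Hba-a2, Hbb-bs and Alas2. Over 32817 windows of the genome, ATATAA occurred in 9.83%, CCAAT in 37.4%, CACCC in 57.5% and a GATA-type motif in 29.8%. A match is a description of these letters and not of a bound site. Between 110 and 11 bases before the start, the alpha genes were identical over all 97 bases that could be compared once shifted by 3 bases, and the beta genes were equal at 71.7% of 99 bases.

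The libraries held 38246649 to 48209846 counts in WT and 33160508 to 37019640 in M92KO mice, and levels below are CPM (counts scaled to a common library total) after scaling by trimmed mean of M values (TMM). A floor of 3 counts corresponds to at most 0.0916 CPM in any library. This floor and the Poisson intervals below cover counting error only, while the intervals of log2 fold changes include the spread between libraries. Muscle fibre genes were abundant, with 14 fibre markers at 151110 to 168042 CPM in sum and the skeletal actin gene Acta1 at 25646 to 27458 CPM. No pair of libraries held the same values.

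Each of the 5 members had a higher mean in M92KO than in WT mice, by 1.48 to 1.62 times. The libraries of the groups overlapped for every member, and none passed the test. The pattern that stood out was between libraries and not between groups: WT replicate 3 was the lowest library and M92KO replicate 2 the next lowest for all 5 genes.

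Hba-a1 was at 62.1, 65.0 and 22.1 CPM in WT and at 94.6, 41.9 and 100.4 CPM in M92KO mice. These values come from 1057 to 3646 counts, so counting error (3.08% at the lowest) was small beside the spread. Hba-a2 was at 40.6, 42.3 and 13.3 CPM in WT and at 59.6, 26.2 and 65.1 CPM in M92KO mice. Both alpha genes had their lowest value in WT replicate 3 and their highest in M92KO replicate 3, and M92KO replicate 2 lay below WT replicates 1 and 2. The means were 49.7 ± 23.9 in WT against 79.0 ± 32.2 CPM in M92KO for Hba-a1, and 32.1 ± 16.3 against 50.3 ± 21.1 CPM for Hba-a2 (SD, n = 3).

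For the beta chain, Hbb-bs was at 66.9, 69.7 and 23.6 CPM in WT and at 106.4, 44.7 and 102.4 CPM in M92KO mice. Hbb-bt was at 40.3, 42.4 and 13.6 CPM in WT and at 65.2, 27.5 and 62.7 CPM in M92KO mice. The order of the libraries was that of the alpha genes, except that M92KO replicate 1 and not replicate 3 was the highest. The means were 53.4 ± 25.8 in WT against 84.5 ± 34.5 CPM in M92KO for Hbb-bs, and 32.1 ± 16.0 against 51.8 ± 21.1 CPM for Hbb-bt (SD, n = 3).

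Alas2 was at 3.61, 3.29 and 1.28 CPM in WT and at 4.29, 2.53 and 5.26 CPM in M92KO mice, from 61 to 191 counts. The lowest library, WT replicate 3, had an exact 95% Poisson interval of 0.978 to 1.64 CPM, below the interval of every other library. M92KO replicate 2, with an interval of 2.02 to 3.14 CPM, overlapped that of WT replicate 2 (2.74 to 3.91 CPM). The means were 2.73 ± 1.27 in WT and 4.03 ± 1.38 CPM in M92KO mice (SD, n = 3).

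**Figure D1:**
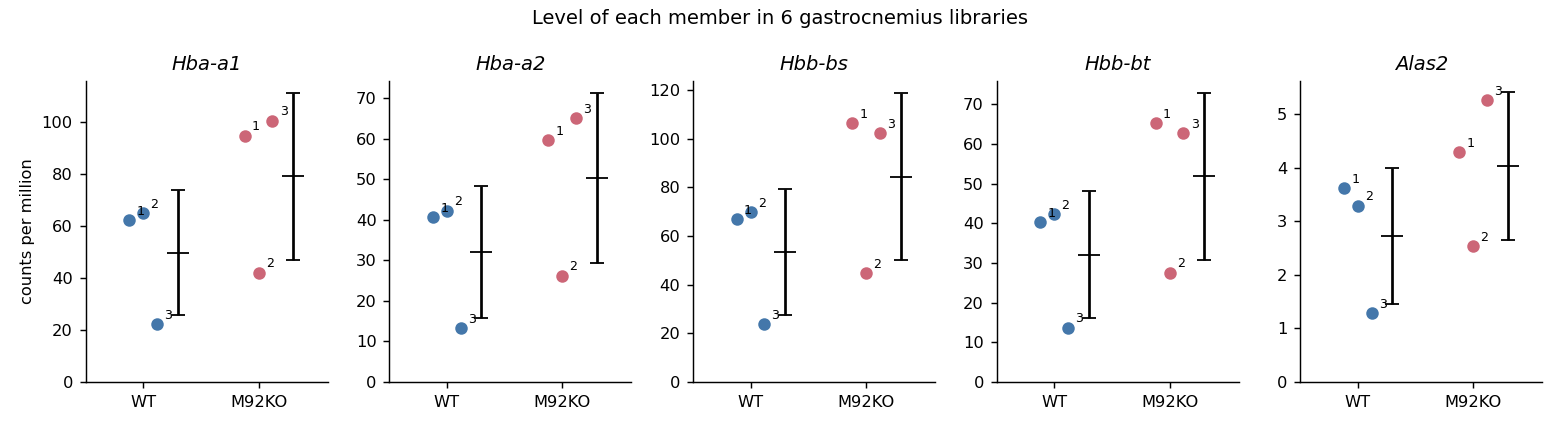
Level of each member in CPM (vertical axis, from 0) in the 3 WT (blue) and 3 M92KO (red) libraries. Points are libraries, numbers are replicates and bars are the mean ± SD. For every member WT replicate 3 is the lowest point, M92KO replicate 2 lies below WT replicates 1 and 2, and the groups overlap.

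In edgeR's quasi-likelihood test, the log2 fold change (M92KO minus WT) was 0.67 (95% interval -0.29 to 1.63, adjusted p = 0.578) for Hba-a1 and 0.65 (-0.35 to 1.66, adjusted p = 0.609) for Hba-a2. It was 0.66 (-0.30 to 1.63, adjusted p = 0.586) for Hbb-bs and 0.70 (-0.29 to 1.68, adjusted p = 0.571) for Hbb-bt. For Alas2 it was 0.57 (-0.32 to 1.46, adjusted p = 0.612). The intervals therefore run from about a 0.783-fold to a 3.20-fold level in M92KO mice, and these libraries do not tell a lower, equal or higher level apart. A two-sided exact permutation test of log2 CPM gave p = 0.3 to 0.5 for the members, where 0.1 is the smallest p that 3 against 3 libraries can give.

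By edgeR's test, 0 of 5 members passed an unadjusted p of 0.05, which 12.4% of the genes tested passed (5.47% higher and 6.92% lower in M92KO). After Benjamini-Hochberg adjustment 0 members and 0 genes in all (0%) were called, against 1955 genes before adjustment. DESeq2 called 322 genes in all after adjustment and 0 members, with adjusted p-values of 0.580 to 0.788 for the members. The groups did not overlap for 0 of 5 members, and for 18.4% of all genes tested. The median log2 fold change was 0.66 over the members and -0.000081 over all genes tested.

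**Figure D2:**
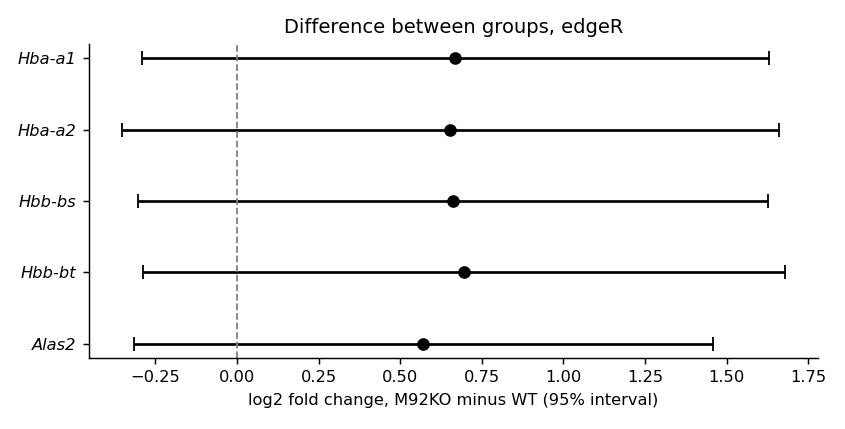
Log2 fold change of each member (M92KO minus WT, horizontal axis) from edgeR, with its 95% interval. Every point lies between 0.57 and 0.70 and every interval crosses 0, the dashed line of no difference.

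The size of the difference rested on single libraries. Without WT replicate 3 the median log2 fold change of the members was 0.30, and without M92KO replicate 2 it was 0.97. In the latter fit 3 members (Hba-a1, Hbb-bs and Hbb-bt) passed an unadjusted p of 0.05, as did 10.5% of all genes tested in it, with adjusted p-values of the members from 0.457 to 0.510 in edgeR. All 5 members stayed higher in M92KO whichever library was left out.

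The spread within groups set the members apart in size. The within-group SD of log2 CPM was 0.80 for Hba-a1, 0.84 for Hba-a2, 0.80 for Hbb-bs, 0.82 for Hbb-bt and 0.69 for Alas2, while its median over all genes tested was 0.15. Only 1.48% to 2.89% of the genes tested had a larger SD than a given member. The highest library was 4.50 to 4.90 times the lowest for the globins and 4.12 times for Alas2.

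The lowest library was WT replicate 3 and the next lowest M92KO replicate 2 for 2.08% of the genes tested (328 genes), a comparison made after the values were seen. Of the 70 other genes on the red cell, haem and iron lists that were tested, 2 had this order. Gypc, a glycophorin of the red cell membrane, was among these and ranged only from 29.0 to 37.6 CPM.

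Summed over the 4 globins, the level was 209.9, 219.3 and 72.7 CPM in WT and 325.8, 140.3 and 330.7 CPM in M92KO mice. Globin counts made up 0.00720% to 0.0326% of a library. The group means of the summed level were 167.3 ± 82.0 and 265.6 ± 109 CPM (SD, n = 3), a ratio of 1.59. Within WT alone the highest library was 3.02 times the lowest, and within M92KO 2.36 times, so both within-group ranges exceeded the ratio of the means.

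While the sum changed 4.55 times between libraries, the proportions among the members changed little. The alpha to beta ratio of counts was 0.958, 0.957 and 0.952 in WT and 0.899, 0.943 and 1.00 in M92KO mice. The ratio of Hba-a2 to Hba-a1 was 0.654, 0.650 and 0.601 in WT and 0.630, 0.625 and 0.649 in M92KO mice. Neither ratio was set apart by group, since the M92KO range of the first spanned the WT values and the WT range of the second spanned the M92KO values.

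The ratio of Hbb-bt to Hbb-bs was 0.602, 0.608 and 0.576 in WT and 0.613, 0.617 and 0.613 in M92KO mice. This was the only one of the 4 ratios whose groups did not overlap, by a log2 difference of 0.046, and both genes share reads. Alas2 counts per 1000 globin counts were 17.2, 14.99 and 17.6 in WT and 13.2, 18.1 and 15.9 in M92KO mice. In two-sided exact permutation tests of the log2 ratios, p was 0.7 for alpha to beta, 1 for Hba-a2 to Hba-a1, 0.1 for Hbb-bt to Hbb-bs and 0.7 for Alas2 to globin. After adjustment over the 4 ratios these exact p-values were 0.933, 1, 0.4 and 0.933, so no ratio passed.

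**Figure D3:**
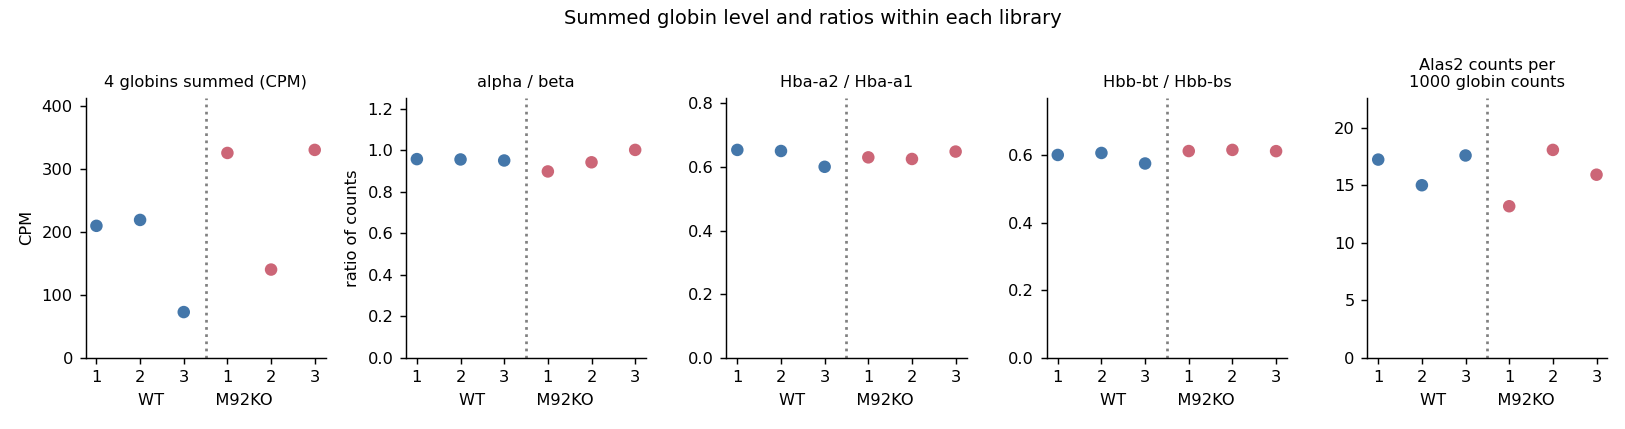
Summed level of the 4 globins in CPM (left) and 4 ratios of counts within a library, each with its vertical axis from 0, for WT (blue) and M92KO (red) replicates 1 to 3. The sum spans 72.7 to 330.7 CPM, while the alpha to beta ratio stays between 0.899 and 1.00.

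Per kilobase of the longest coding transcript, the order of levels was Hbb-bs, Hba-a1, Hba-a2, Hbb-bt and Alas2 in each of the 6 libraries. The WT means were 85.1 ± 41.1, 71.2 ± 34.2, 57.9 ± 29.3, 45.6 ± 22.8 and 1.34 ± 0.621 CPM per kilobase (SD, n = 3) in that order. Across libraries neighbouring globins overlapped in level, and the order within a pair depends on how shared reads were assigned. Alas2 lay below every globin in every library. Myoglobin (Mb), the oxygen store of the fibre, was at 5098 to 7074 CPM per kilobase and had 17.8 to 77.4 counts per globin count. Its highest library was only 1.39 times its lowest.

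Over the 6 libraries, log2 CPM of the 6 globin pairs correlated with Pearson's r of 0.997 to 1.00, and Alas2 with each globin at 0.981 to 0.990. These are descriptions over 6 points that share library, depth and scaling. The part of shared reads in them was not tested, and the alpha with beta pairs, which share no 50-base window, were at 0.997 to 0.998. Among 13323 other genes with a mean of at least 1 CPM, the 10 genes nearest to the mean of the 4 globins had r of 0.960 to 0.978. They were Slc25a36, Acot13, Gm5148, Hbb-b1, Sema4b, Atp13a5, Trdmt1, Cyth4, Snrpg and A930028N01Rik.

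Likeness of order did not mean likeness of size. Hbb-b1, a further adult beta globin symbol of the table, spanned 5.58 times from its lowest to its highest library, Atp13a5 2.04 times and Acot13 1.16 times. Hbb-b1 was at 2.86, 3.08 and 0.775 CPM in WT and at 3.23, 1.86 and 4.32 CPM in M92KO mice, or 3.03 to 4.42 counts per 100 counts of Hbb-bs. RefSeq places Hbb-b1 on an alternate haplotype of the beta globin locus, and whether its counts come from reads that the beta genes share was not tested. By deviation from the group means, the 5 nearest genes were Nfatc4, Fam177a, Psma6, H3f3c and Agpat2, which spanned 1.10 to 1.41 times.

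**Figure D4:**
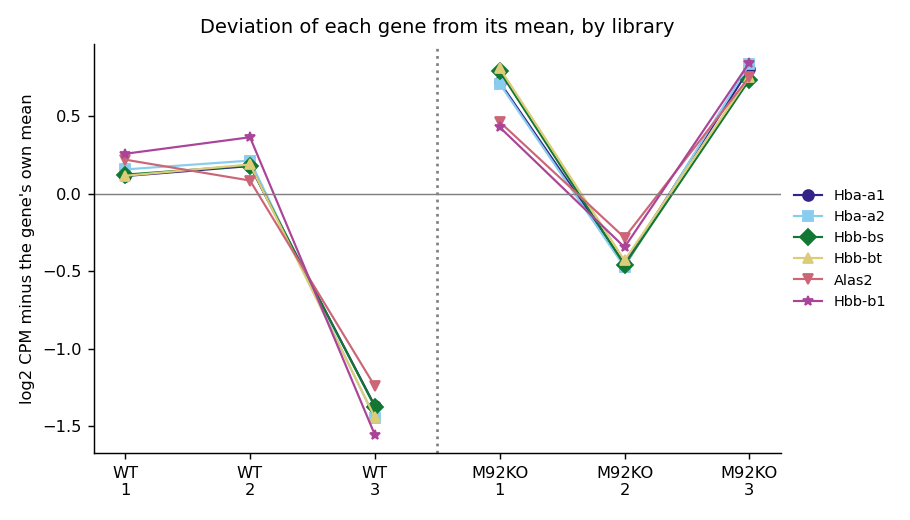
Log2 CPM minus each gene's own mean over the 6 libraries (vertical axis) for the 5 members and Hbb-b1, with lines joining libraries of 1 group only to guide the eye. All 6 genes are lowest in WT replicate 3, and the 4 globins lie almost on top of each other.

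The summed level of each wider list of red cell, haem and iron genes spanned 1.10 to 1.58 times between libraries, against 4.54 times for the members. Of 104 genes on 7 lists, 101 were in the table and 70 were tested. By edgeR 3 rose and 2 fell at an unadjusted p of 0.05, 7.14% of those tested, against 12.4% of all genes tested. After adjustment 0 of the 70 passed (lowest adjusted p = 0.193). Their median log2 fold change was -0.036.

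Embryonic and minor globins (Hba-x, Hbb-y, Hbb-bh1, Hbb-bh2, Hbq1a and Hbq1b) were at 0 counts in all 6 libraries. Of the 2 globin-family genes tested, Mb and Cygb, a cytoglobin, 0 passed. Mb was at 6233 ± 527 CPM in WT and 6629 ± 1050 CPM in M92KO mice (SD, n = 3), and Cygb had means of 23.9 and 22.6 CPM. Ngb, the neuroglobin gene, had at most 6 counts.

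Among 17 genes of haem synthesis and mitochondrial iron, 2 (11.8%) passed an unadjusted p of 0.05, near the 12.4% of all genes tested. Both were higher in M92KO mice, and 15 genes did not pass. Slc25a39, a mitochondrial carrier, was at 48.1 ± 1.10 CPM in WT and 55.1 ± 2.94 CPM in M92KO mice (SD, n = 3), with an adjusted p = 0.313 in edgeR. Alas1, the synthase of other tissues, was at 190.0 ± 6.29 and 200.7 ± 23.3 CPM (SD, n = 3) and did not pass.

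The genes of the red cell membrane and skeleton fell into a detected and a scarcely detected part, with 8 of 18 tested. Sptb, a beta spectrin (means of 234 and 238 CPM), and Epb41, protein 4.1 (148 and 141 CPM), were well above the floor, and other tissues also express both. Slc4a1, the band 3 anion exchanger, had 8, 6 and 0 counts in WT and 5, 0 and 12 in M92KO mice. Epb42, Kel and Cldn13 were at 0 throughout. Of the 8 membrane genes tested, 1 passed an unadjusted p of 0.05 in edgeR. This was Aqp1, a water channel of red cells and endothelium, at 1093 ± 44.6 CPM in WT and 934 ± 113 CPM in M92KO mice (SD, n = 3, adjusted p = 0.398). Ank1 and Tmod1, which muscle fibres also express, did not pass (means of 488 and 508 CPM, and 389 and 407 CPM).

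Of the 14 tested enzymes and maturation genes of red cells and reticulocytes, 0 passed. The most abundant, Cat, Prdx2 and Bnip3l, are used by many cell types and had adjusted p-values of 0.842 to 0.907 in edgeR.

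Of the 14 erythroid transcription factors and receptors, 8 were tested, among them the factors Tal1 (means of 8.33 and 6.70 CPM in WT and M92KO mice), Zfpm1 (9.56 and 8.53 CPM), Lmo2 (11.8 and 11.3 CPM) and Lyl1 (3.76 and 3.92 CPM). Gata1 had 2 counts in each of 2 libraries and 0 in the others, and Klf1 had 0 to 6 counts, and neither was tested. By edgeR 1 of the 8 passed an unadjusted p of 0.05. Kit, a stem cell factor receptor that mast cells also carry, was at 6.64 ± 2.19 CPM in WT and 4.29 ± 0.236 CPM in M92KO mice (SD, n = 3, edgeR adjusted p = 0.319). Tfrc, the transferrin receptor, and Ldb1 did not pass, with means of 387 and 436 CPM and of 40.4 and 39.4 CPM.

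Of the 11 clearance genes tested, 1 (9.09%) rose at an unadjusted p of 0.05, as did 5.47% of all genes tested. Hp, which encodes the haemoglobin-binding haptoglobin, was at 0.498, 0.233 and 1.26 CPM in WT and at 2.16, 3.85 and 2.34 CPM in M92KO mice. These values come from 23, 9 and 60 counts in WT and 75, 126 and 85 in M92KO mice. All M92KO libraries lay above all WT libraries, while the groups also did not overlap for 18.4% of all genes tested. The log2 fold change of Hp was 2.03 ± 0.50 (SE), with an adjusted p = 0.193 in edgeR. Within the groups Hp did not follow the globins, since WT replicate 3 and M92KO replicate 2, the low globin libraries, were the highest of their groups. The ferritin genes Fth1 (959 ± 33.9 and 1095 ± 95.3 CPM, SD, n = 3) and Ftl1 (means of 125 and 126 CPM) did not pass.

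On the list of iron import and sensing, 0 of 10 genes tested passed. Hjv, a BMP co-receptor abundant in muscle, had means of 680 and 638 CPM, Ireb2 70.7 and 69.2 CPM, and Ncoa4 58.5 and 59.7 CPM in WT and M92KO mice.

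Other blood cells and the tissue's own cells were followed by marker lists in the same libraries. The 13 platelet markers summed to 14.6 to 16.8 CPM in WT and 15.7 to 20.1 CPM in M92KO mice, with Gp1ba the most abundant (means of 8.09 and 8.59 CPM). Ppbp had 4 to 16 counts, and Treml1 was at 0 throughout. The 15 neutrophil markers summed to 6.06 to 9.29 CPM in WT and 3.47 to 5.21 CPM in M92KO mice, with Ly6g and Elane at 0 throughout. Mmp9, the most abundant of them, was at 6.97, 2.33 and 2.33 CPM in WT and at 2.30, 1.40 and 1.74 CPM in M92KO mice. Its means were 3.88 and 1.81 CPM, and it fell at an unadjusted p of 0.05 (edgeR adjusted p = 0.374). WT replicate 1, its highest library, also had the highest sum of the neutrophil markers. Of the 6 neutrophil markers tested, 1 fell (16.7%), against 6.92% of all genes tested.

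The 7 B cell markers in the table summed to 1.56 to 2.85 CPM in WT and 1.10 to 2.44 CPM in M92KO mice, and the 9 T and NK cell markers to 0.801 to 1.42 and 0.580 to 1.12 CPM. The 12 monocyte and macrophage markers, led by Lyz2, summed to 118.7 to 133.2 CPM in WT and 96.4 to 133.6 CPM in M92KO mice. Cd14 fell and Ccr2 rose at an unadjusted p of 0.05 (edgeR adjusted p = 0.390 and 0.402). These were 16.7% of the 12 markers, against 12.4% of all genes tested. None of these blood cell lists had its lowest sum in WT replicate 3, the lowest globin library.

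The 14 endothelial markers summed to 1520 to 1613 CPM in WT and 1350 to 1563 CPM in M92KO mice. At an unadjusted p of 0.05, 6.92% of all genes tested were lower in M92KO mice, as were 4 of these markers (28.6%). Tie1 (133 ± 5.01 and 113 ± 6.34 CPM) and Nos3 (42.8 ± 3.998 and 35.8 ± 2.24 CPM, SD, n = 3) were among these, with adjusted p-values of 0.258 and 0.304 in edgeR, while Kdr had means of 243 CPM in both groups. The 14 muscle fibre markers differed by at most 1.11 times between libraries in their sum. Of these, Des and Myh2 were higher in M92KO mice at an unadjusted p of 0.05 (edgeR adjusted p = 0.281 and 0.314). That was 14.3% of the markers, against 12.4% of all genes tested. The groups did not overlap for Des. They overlapped for Myh2, at 2124, 2239 and 1612 CPM in WT and 2018, 3575 and 4099 CPM in M92KO mice. The part of blood cell, endothelial and fibre content in the members' levels was not tested.

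**Figure D5:**
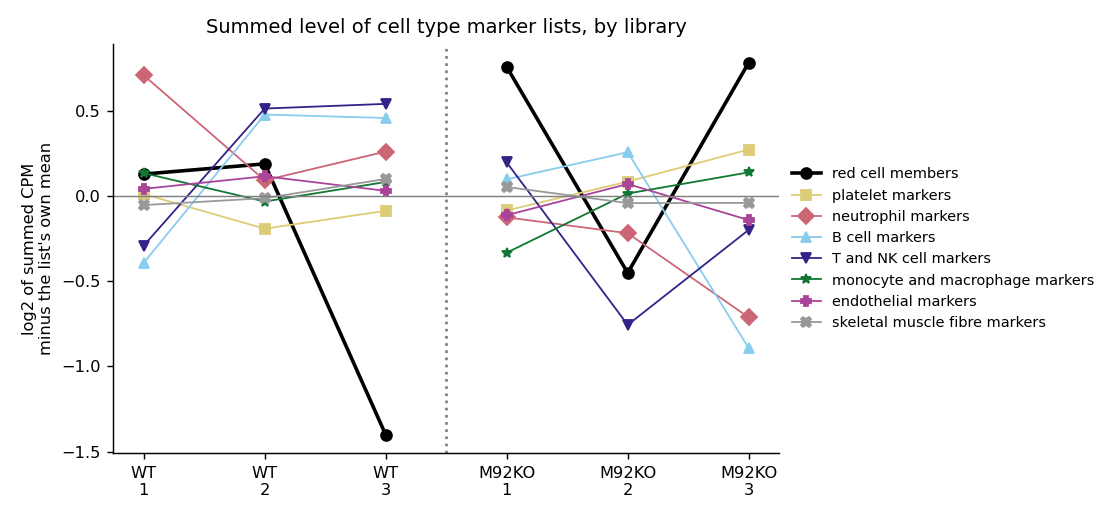
Log2 of the summed CPM of each marker list minus the list's own mean over the 6 libraries (vertical axis), with lines joining libraries of 1 group only to guide the eye. The red cell members (black) span 4.54 times between libraries, and the next widest lists, of neutrophils, B cells and T and NK cells, span 2.46 to 2.68 times at far lower levels.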

How the data were processed

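Raw counts of reads per gene symbol, deposited by the authors without normalization, were used for 3 WT and 3 M92KO Gas libraries (SMARTer kit). The submitters' processing notes name GRCm38 (mm10). The aligner, the counting program and its strand setting are not given in the sources used here, and Alas2 lies within the Apex2 locus on the other strand. The members and gene lists were chosen with earlier results of these data known.

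In edgeR 4.0.16 (R 4.3.3), genes were kept by filterByExpr (minimum count 10, minimum total 15), scaled by TMM and compared with glmQLFit and glmQLFTest, with no covariate. Benjamini-Hochberg adjustment covered every gene tested. The SE is the log2 fold change divided by the square root of F. log2 CPM used a prior count of 2, and exact tests of single genes added 0.5 counts. The model was also run on simulated counts in which every gene had the same dispersion. That run cannot show how the test behaves for genes that vary as widely as the members.

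Alternatives were DESeq2 1.42.0 (independent filtering at 0.05, set after its default had been run, which called 312 genes in place of 322), its size factors, other filters, the study's steps (quantile normalization, log2 after adding 1, limma 3.58.1), scaling without globins, a replicate block and leaving out each library. Named were all members, list genes with an unadjusted p under 0.05 or, up to 3 a list, the highest mean CPM, and the genes most like the globins (10 by level, 5 by deviation from group means, mean CPM of at least 1). The correlation of same-numbered libraries' deviations was 0.081, 0.038 and 0.015, so numbers were not taken as pairs. Gypc, Sptb, Epb41, Tal1, Zfpm1, Lmo2, Lyl1, Hbb-b2 and genes at or near 0 were named after their values were seen. Some listed genes are counted but not reported here. The smallest library held 33160508 counts, and the spread between libraries and not the depth limited the members' precision.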

Additional observations from a re-analysis of the deposited data

How the results depend on the processing

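Each member stayed higher in M92KO mice in all 65 refits of a member under the 13 alternatives. The count of members at an unadjusted p of 0.05 was 0 to 3 when 1 library was left out (3 only without M92KO replicate 2, and 0 without any other), and 0 under every other alternative. Leaving out a library moved the median log2 fold change of the members between 0.30 (without WT replicate 3) and 0.97 (without M92KO replicate 2), and the log2 ratio of the summed globin level between 0.31 and 0.97. The other alternatives gave medians of 0.66 to 0.72 and summed levels of 0.66 to 0.73. The count of other red cell, haem and iron genes at an unadjusted p of 0.05, 5 as reported, was 2 to 13 when a library was left out (13 without M92KO replicate 1, 2 without WT replicate 2) and 4 to 6 otherwise. The share of all genes tested moved with it: without M92KO replicate 1 it was 18.6% for both these genes and all genes, and without WT replicate 2 it was 2.86% and 7.65%. The cause of these changes was not tested.

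The numbers of the libraries are shared only as numbers, since same-numbered libraries deviated together with a correlation under 0.1 and WT replicate 3 correlated best with M92KO replicate 2. With the replicate block, the median log2 fold change of the members was 0.71, the summed level 0.73, 0 members and 5 other red cell genes passed, and no call on a member changed.

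Small ratios within a library changed sign with 1 library left out. The log2 difference of Alas2 to globin ranged from -0.19 to 0.034 and that of alpha to beta from -0.054 to 0.025, both positive only without M92KO replicate 1. That of Hba-a2 to Hba-a1 ranged from -0.039 to 0.022 and was negative without WT replicate 3 (-0.039) or M92KO replicate 3 (-0.015). DESeq2's Wald test gives no summed level, so none was computed. By Spearman's rho in place of Pearson's r, 18 genes had a rho of 1 with the globins, among them 5 of the 10 named.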

Other observations

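The symbol Hbb-b2 had 2 counts in WT replicate 3, 4 in M92KO replicate 3 and 0 in the other 4 libraries. Xist had at most 12 counts in any library, while Ddx3y had 3582 to 6978, and both groups overlapped.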
